A study of Mus musculus with 12 samples.

Results

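Brainstem microglia (BSM), the resident macrophages of the mouse brainstem, were described here through the genes that gave the strongest array signal in them. The BSM were sorted from C57BL/6 mice aged 6 weeks as CD11b+ and Ly6G- cells with low CD45 and low CD115, and their amplified total RNA was hybridized to Affymetrix Mouse Exon 1.0 ST arrays with no culture in between. They made up 3 of the 6 arrays of the series. The other 3 held bone marrow monocytes (BMDM) of the same strain and age, sorted as CD11b+, CD115+ and Ly6G- cells with high CD45. No treatment, transgene or engineered allele is named for either group. Each array held a pool of several mice, so the spread between arrays is a spread between pools and not between animals. In the labels, replicate 1 is female in BSM and in BMDM, and the remaining replicates are male. The study's table of RNA samples also gives both replicate 1 samples as female, while its main text speaks of male mice. Every array was summarised by 2 programs, which gave an Aroma table and an Expression Console table, and the 2 tables were never pooled, so n is 3 per cell type. The level of a gene is its log2 Aroma intensity, averaged over the 3 BSM arrays. Of 21837 Aroma rows, 18821 carried exactly 1 gene symbol, which gave 18430 genes, and the 300 genes of highest level (1.63%) were taken as members.

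Microglia enter the brain during embryonic life and persist there by renewing themselves, under continuous signalling through the colony-stimulating factor 1 receptor and transforming growth factor beta. They survey the tissue with moving processes, sense nucleotides through P2Y receptors and fractalkine through Cx3cr1, tag synapses and debris with complement C1q, and digest what they engulf in a large lysosomal compartment. Siglech, P2ry12, Fcrls and Sparc are commonly used to tell them from other myeloid cells.

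The arrays labelled BSM carried the microglial genes. Of 30 microglia markers, 29 were measured, and 23 of them (79.3%) were members. The list was chosen with earlier results of these data known. It holds Mertk, P2ry13 and Cx3cr1, which the study itself reported as higher in BSM, so the counts for this list are a description. Their median level was 11.69, against 5.76 over all 18430 genes. The Fc receptor-like gene Fcrls stood at 11.96, 11.92 and 11.84 on the BSM arrays and at 4.52, 4.40 and 4.34 on the BMDM arrays. The nucleotide receptor P2ry12 stood at 11.98, 11.70 and 11.73 in BSM and at 5.02, 5.27 and 5.84 in BMDM. For both genes every BSM array lay far above every BMDM array. The fractalkine receptor Cx3cr1 was high in BSM, at 11.68, 11.63 and 11.68, and intermediate in BMDM, at 9.28, 9.37 and 9.58. In the limma fit across all rows (two-sided, Benjamini-Hochberg adjusted p of 0.05), 28 of the 29 markers were higher in BSM than in BMDM, none was lower, and the signalling adaptor Tyrobp did not pass (log2 difference 0.05, adjusted p = 0.71). The same fit called 49.6% of all rows, 28.0% higher and 21.6% lower in BSM. The markers outside the members were Aif1 at rank 344, Slc2a5 at 562, Gal3st4 at 755, Upk1b at 1205, Lag3 at 1207 and Sall3 at 2276. Summed on the linear scale, the 29 markers reached 95172 to 96549 per BSM array and 13494 to 14312 per BMDM array.

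Markers of other cell types were mostly at the dim end of the BSM order. Of 15 neuron markers 14 lay below the median of all genes, as did 14 of 15 monocyte markers, 11 of 12 endothelial and mural markers, 10 of 11 T and NK cell markers, 14 of 15 neutrophil and granule genes, all 6 oligodendrocyte precursor markers, 6 of 7 erythroid genes, 4 of 5 B cell markers, 8 of 10 astrocyte markers and 6 of 8 ependymal and choroid plexus markers. The oligodendrocyte and dendritic cell lists were nearer the middle, with 6 of 12 and 5 of 9 below it. The highest oligodendrocyte marker was Cnp at 6.92. Of the markers of border-associated macrophages, which live in the meninges and around vessels, 7 of 11 were below that median, and Mrc1 stood at 6.47, 6.76 and 6.35. The same list held Stab1, a scavenger receptor, at 9.07 and rank 1036, with 3 of 3 BSM arrays above all BMDM arrays. Exceptions among the other lists were Lyz2, the lysozyme gene of myeloid cells, at 10.29 and rank 317, the B cell receptor chain Cd79b at 8.95 and rank 1158, the dendritic cell factor Batf3 at 7.78, the astrocyte glutamate transporter Slc1a3 at 7.68, and Csf3r, the granulocyte colony-stimulating factor receptor, which was a member at rank 165. The transthyretin gene Ttr of the choroid plexus varied between pools, at 8.51, 7.22 and 8.52, and so did the haemoglobin gene Hbb-b1, at 5.92, 7.89 and 7.20. On the BMDM arrays Hbb-b1 was higher, at 12.29, 12.60 and 12.91. Summed levels ran from 405 to 433 per BSM array for neuron markers, 510 to 579 for astrocyte markers, 1422 to 1709 for monocyte markers (38697 to 41369 in BMDM) and 1015 to 1106 for border-associated macrophage markers. The part of such cells in any result below was not tested.

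**Figure D1:**
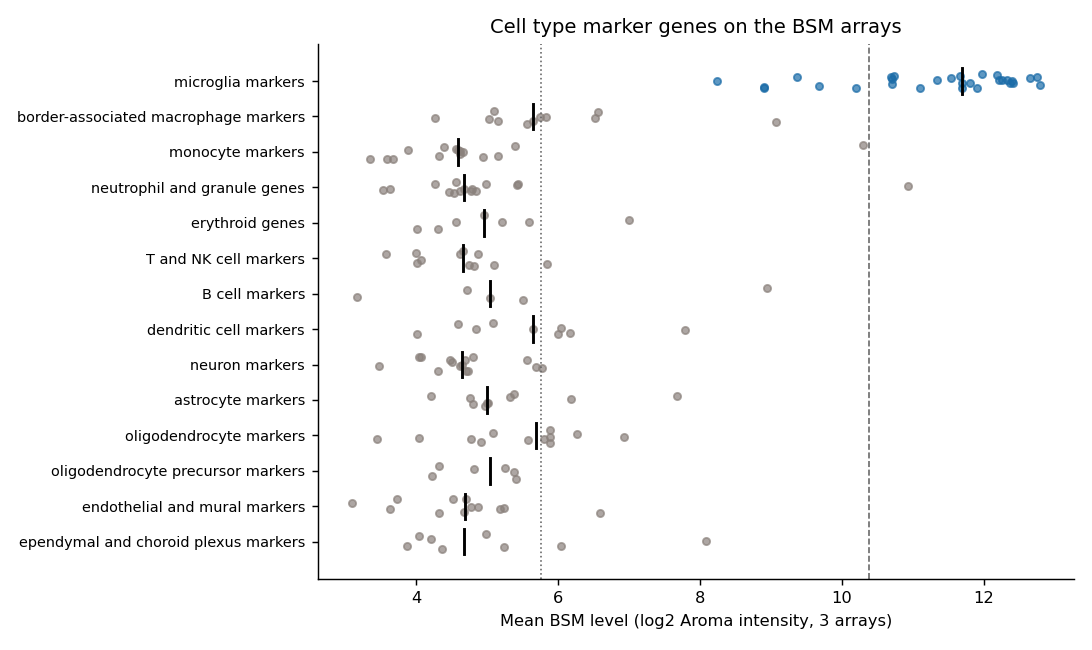
Mean BSM level of each measured marker gene on the x axis (log2 Aroma intensity, 3 arrays), with a row for each cell type list. Microglia markers lie at a median of 11.69, whereas the neuron and endothelial lists lie at medians of 4.65 and 4.69, below the all-gene median of 5.76.

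The genes behind the sort were checked on the same arrays. Csf1r, which encodes CD115, stood at 12.34, 12.36 and 12.29 in BSM and at 10.48, 10.23 and 10.34 in BMDM. Its transcript was thus higher in the cells gated as low for the CD115 protein (log2 difference 1.98, SE 0.10, adjusted p = 1.4e-06). Itgam, which encodes CD11b, was also higher in BSM (11.02 against 10.14). Ptprc, which encodes CD45, was lower in BSM, at 10.06 against 10.55 (adjusted p = 0.0083), and Ly6g stood at 3.53 in BSM. The Y-linked gene Eif2s3y was at 2.92 on BSM replicate 1 and at 8.28 and 8.10 on replicates 2 and 3, and in BMDM it was at 2.76, 7.93 and 7.94. In both cell types only the replicate labelled female was low. Because these are bulk samples, fewer cells of a type and less RNA per cell cannot be told apart.

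The BSM level fell gradually along the order, with no step that set a group of genes apart. The level was 13.26 at rank 1 and 10.38 at rank 300, a 7.36-fold span, and rank 300 lay 24.6-fold above the median gene. On the linear scale the 300 members held 25.7 to 26.6% of the summed level of all genes per BSM array, and the first 25 held 5.67 to 5.90%. The same 300 genes held 18.9 to 19.1% on the BMDM arrays. This is an order of array signal. Probes of different genes bind with different strength, so genes of like level need not have like numbers of transcripts.

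**Figure D2:**
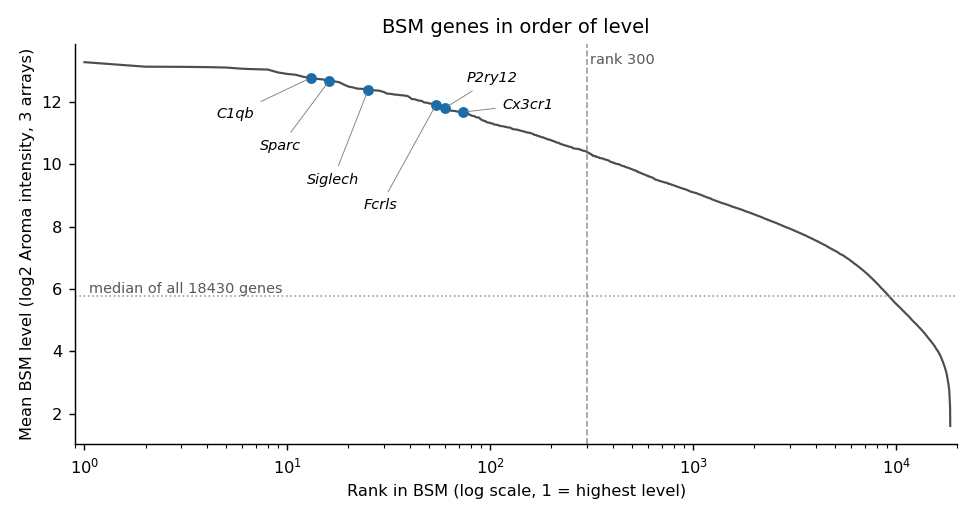
Mean BSM level (y axis, log2 Aroma intensity over 3 arrays) of 18430 genes against their rank (x axis, log scale). The level falls from 13.26 at rank 1 to 10.38 at rank 300 and 5.76 at the median gene, and the named microglia markers lie among the first 75 ranks.

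The membership was more stable than the exact rank. Pairs of BSM arrays correlated at 0.985 to 0.990 over all genes and at 0.938 to 0.959 within the 300, values that describe genes and not replicates. Of the 300 members, 265 were among the first 300 on each of the 3 arrays taken alone. All of the first 25 were among the first 50 on every array. Neighbours in the order were rarely apart: the median gap between adjacent genes was 0.0047, and in only 2 of 299 adjacent pairs did the gap exceed the larger of their SDs. The widest gap, 0.14, followed Rps23rg1 at rank 1. A member's rank moved by a median of 31.5 places between arrays, by 7.5 among the first 50, and by up to 249 for Jund, a subunit of the AP-1 transcription factor. At the boundary the last members were Psenen, Tmem86a, Mylip, Ptbp1, Chchd2 and the integrin beta 2 chain Itgb2, from 10.41 to 10.38. Just outside it were Rps7, H4c12, Lgals9, Fli1 and the class I gene H2-D1, from 10.38 to 10.36. Tmem86a and H2-D1, on opposite sides, differed by less than the SD of Tmem86a, 0.27, so the boundary separates no distinct groups.

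Most of the first 25 genes encoded proteins of 4 kinds: ribosomal and histone proteins, lysosomal proteins, complement and class I proteins, and surface or secreted proteins. Rps23rg1, a retrotransposed copy of the ribosomal protein gene Rps23, came first at 13.06, 13.29 and 13.45. It was lower in BSM than in BMDM by 0.49 (adjusted p = 0.01), a direction that a further quantile normalization turned. The histone H2A genes H2ac8, H2ac15, H2ac6 and H2ac12 followed within the first 6, with means from 13.12 to 13.05. These are families of near-identical copies, between which array probes can be shared, so the level of a single copy is uncertain. Of these, H2ac8 and H2ac6 were measured in the Expression Console table and stood far lower there. The highest gene outside such families was Laptm5, a lysosomal membrane protein of blood cells, at 12.99, 13.13 and 13.15.

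The next genes had closely matched pools. The tetraspanin Cd81 stood at 12.92, 13.11 and 13.07, and the P-selectin ligand Selplg at 12.95, 13.07 and 13.06. The aspartic protease Ctsd stood at 12.90, 12.90 and 12.85. The SDs of these 3 genes over the pools were 0.10, 0.07 and 0.03. The protease inhibitor Cst3 stood at 12.83, 12.75 and 12.80, the C1q chain C1qb at 12.80, 12.72 and 12.75, and the matricellular protein Sparc at 12.67, 12.66 and 12.62. The legumain gene Lgmn, an asparaginyl protease of the lysosome, stood at 12.65, 12.58 and 12.63. The ADP receptor P2ry13, at 12.37, 12.32 and 12.52, and the lectin Siglech, at 12.43, 12.37 and 12.33, closed the first 25. Housekeeping genes of every cell lay between them, with beta-actin (Actb) at rank 9 and 12.93 ± 0.03 (SD, n = 3).

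**Figure D3:**
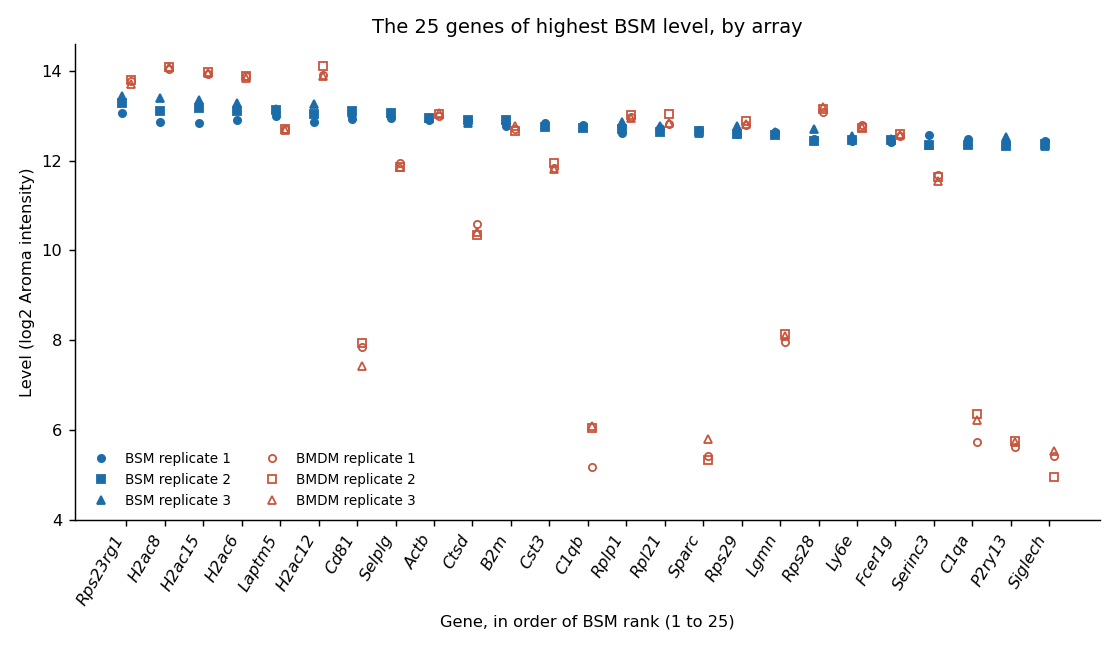
Level of the 25 genes of highest BSM rank (y axis, log2 Aroma intensity) on each of the 3 BSM arrays (filled) and 3 BMDM arrays (open). BSM pools lie close together for each gene, while the BMDM arrays lie near 5 to 8 for Cd81, C1qb, Sparc, Lgmn, C1qa, P2ry13 and Siglech and near the BSM arrays for the ribosomal genes, Actb and B2m.

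Setting the 300 members beside BMDM showed which of them were shared with monocytes. Since the members were chosen for a high level in BSM, a lean towards higher values in BSM follows partly from the choice, and the counts are a description. Of the 300 members, 168 stood higher than in BMDM (28.0% of all rows did), 89 stood lower (21.6% of all rows) and 43 did not pass. The median log2 difference was 0.55, against 0.17 over all genes. At least 2-fold, 120 members were higher, where 6.81% of all rows were, and 27 were lower, where 9.24% of all rows were. There were 41 members at least 16-fold higher, and the share of all rows at that fold was not counted. The first 300 BMDM genes included 143 of the members (47.7%), whereas 86 members lay below rank 1000 in BMDM and 25 lay below the BMDM median of 5.61. Because neither table carries a detection call, the fold of each of these 25 is given as a lower bound, with 5.61 in place of its BMDM level. The members thus included genes that BMDM also carried near the top and genes below the middle of the BMDM order. The split depended on scaling: with each array centred on its median 152 members were higher and 107 lower, and after a further quantile normalization 194 were higher and 47 lower.

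**Figure D4:**
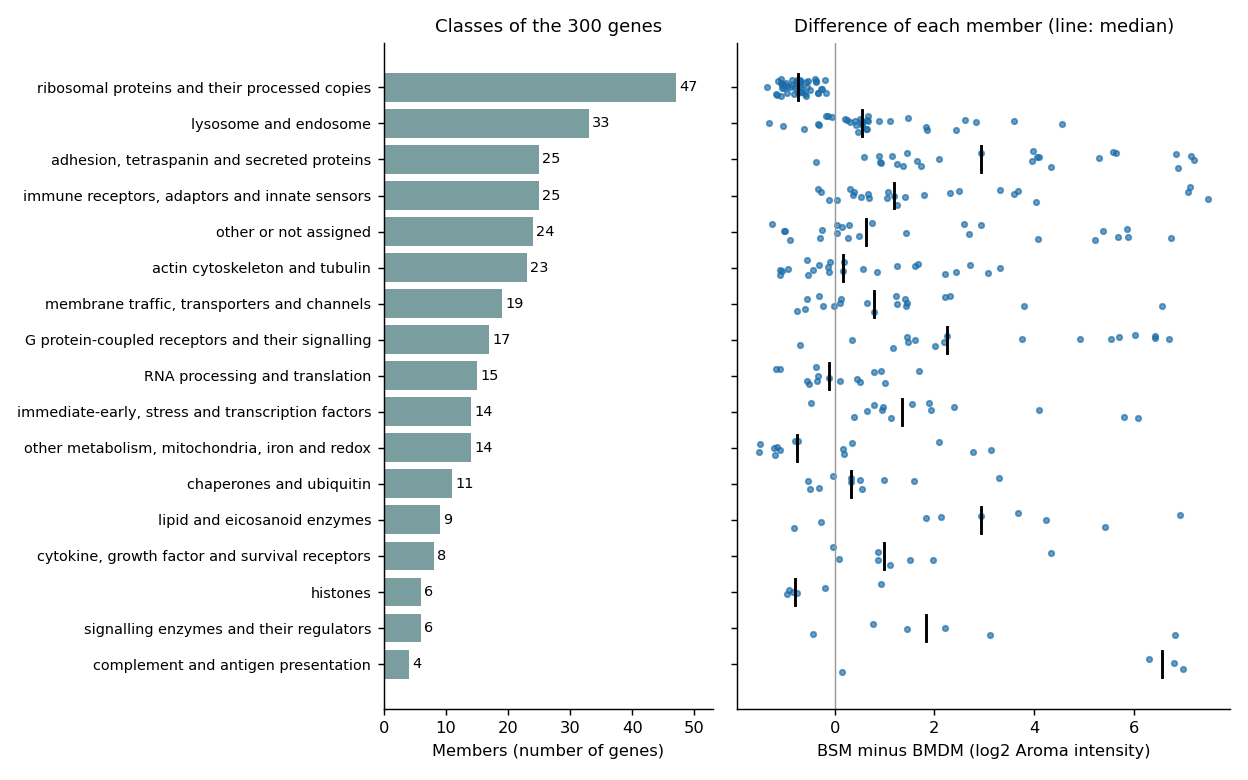
Number of the 300 members in each of 17 functional classes (left, x axis in genes) and the BSM minus BMDM difference of each member (right, x axis in log2 Aroma intensity, line at the class median). The ribosomal class is the most numerous with 47 genes and lies to the left of 0 at a median of -0.74. The class of complement and antigen presentation, of only 4 genes, lies farthest to the right at a median of 6.55. The lipid and adhesion classes follow at medians of 2.94 and 2.93.

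Ribosomal proteins formed the largest class. It held 47 members, copies included, with 15 among the first 50 ranks, and 18.2 to 19.9% of the summed level of the members. Of a list of 79 cytosolic ribosomal protein genes, 56 were measured, 44 were members and the lowest level was 8.55. The small-subunit gene Rps24 stood at 12.20, 12.37 and 12.49 in BSM and at 12.87, 12.93 and 12.96 in BMDM, with no overlap, but in the Expression Console table its difference was 0.39 in the other direction (adjusted p = 0.16). Rpl37 of the large subunit stood at 12.28, 12.32 and 12.46 in BSM and averaged 12.72 in BMDM. All 47 were also among the first 300 genes of BMDM. Over the list, none was higher in BSM and 51 of 56 were lower, at a median difference of -0.78. After a further quantile normalization the number lower was 37, at a median of -0.39, and with median centring it was 56. Among the 16 measured by Expression Console, 8 were lower and 1 was higher. Rpl10a, a member, was called lower by the Aroma values (-0.74) and higher by Expression Console (1.15, adjusted p = 0.0019). Translation factors stood lower in the order, at a median level of 9.15, and 23 of 30 were lower in BSM. Their 4 members were the elongation factor Eef2 and the initiation or poly(A) proteins Eif4g2, Pabpc1 and Eif4a1.

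Ribosomal genes are known for starting transcription at a C within a run of pyrimidines, a feature read by growth signalling. Promoter sequences were taken from RefSeq on build GRCm38.p6, from 250 bases before to 50 after each annotated start, and were found for 236 of the members and 14712 genes in all. A C followed by 4 pyrimidines, beginning between 2 bases before the start and the third transcribed base, was found in 17 of 46 ribosomal promoters (37.0%) and in 14 of the 35 that were members, against 10.8% of all promoters. It was found in 16.1% of the members' promoters. Windows of 30 bases around the starts of 4 members are shown because they carry this feature at the annotated start, with the 5 matched bases in capitals. The run of pyrimidines may begin before them.
Rps24: ccgcgctggggtCCTTCcttgcgcgttgat
Rps27: tttccgctttcgCTCCTttccggcggtgac
Rps10: cgccgcgcacgcCCCTTcctttccagcctc
Fau: gcgcccccacttCTTCCtctttcttgactc
Their places were chr14:24490664-24490693 on the plus strand for Rps24, chr3:90213633-90213662 on the minus strand for Rps27, chr17:27635229-27635258 on the minus strand for Rps10 and chr19:6057935-6057964 on the plus strand for Fau. All 4 genes were among the first 52 ranks. The letters CCGGAAGT, a form bound by ETS factors, were in 9 of 46 ribosomal promoters (19.6%), against 6.17% of all and 5.51% of the members' promoters. A match of letters describes a sequence and not a bound site.

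Lysosomal and endosomal genes were the second class, with 33 members and 11.7 to 11.96% of the members' summed level. Of 39 measured lysosomal hydrolases and membrane proteins, 22 were members. Cathepsin genes were the most numerous among them. Ctsd stood at 12.88 ± 0.03 in BSM and 10.45 in BMDM. Ctss, the cathepsin that trims the class II invariant chain, stood at 12.28, 12.19 and 12.27 in BSM and at 11.02, 11.13 and 11.30 in BMDM. Ctsb stood at 12.06, 12.08 and 12.11 in BSM, and Ctsl at 11.13, 11.29 and 11.21. For all 4 the BSM arrays lay above the BMDM arrays, by 2.43, 1.10, 0.51 and 3.59 on the log2 scale. Lgmn had the widest difference of the class, 4.56 (SE 0.10, 23.5-fold, adjusted p = 1.7e-08).

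Not every lysosomal gene followed this direction. Over the list 26 of 39 genes stood higher in BSM than in BMDM and 5 stood lower, with a median difference of 0.53. With median centring the counts were 20 and 8, at a median of 0.34. The saposin precursor Psap was lower in BSM, at 11.71 against 12.03, as were the cholesterol-binding protein Npc2, at 11.29 against 11.91, and the thiol reductase Ifi30, at 10.42 against 11.73. Ifi30 reduces disulphide bonds of antigens in the endosome. The progranulin gene Grn, at 12.04, and the macrophage glycoprotein Cd68, at 11.87, were higher in BSM by 0.48 and 0.55. The proton pump behind lysosomal acid was dimmer: 2 of 14 V-ATPase genes, Atp6ap1 and Atp6v0b, were members, and 9 of 14 were lower in BSM.

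The letters CACGTGAC, the palindrome-like core through which TFEB-family factors are known to act on lysosomal genes, were in 7 of 33 promoters of the lysosomal list (21.2%) and in 5 of the 19 that were members. They were in 7.20% of the members' promoters and in 3.54% of all. Other lists held them too, with 8.70% of ribosomal and 10.3% of immediate-early promoters, whereas respiratory chain genes had 3.1% and complement genes none. The letters TGAGTCA were also more frequent in the lysosomal list, at 15.2% against 5.38% of all, while CCGGAAGT was absent from it. Windows of 4 of the 5 lysosomal members with CACGTGAC are shown because they rank highest among those that held it, with the motif in capitals. It reads GTCACGTG where it lies on the opposite strand.
Ctsd: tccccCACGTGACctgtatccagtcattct
Lgmn: atggaatgtctGTCACGTGgtccattttat
Lamp1: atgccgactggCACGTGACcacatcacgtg
Ctsa: atgagcaaactGTCACGTGatgcagatgct
The windows lie at chr7:142388048-142388077 (Ctsd) and chr12:102439125-102439154 (Lgmn) on the minus strand, and at chr8:13159122-13159151 (Lamp1) and chr2:164833748-164833777 (Ctsa) on the plus strand. The motif began 245 bases before the start in Ctsd, 51 before it in Lgmn, 28 before it in Lamp1 and 14 before it in Ctsa.

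Complement was represented at the very top by the 3 chains of C1q, the molecule that opens the classical pathway. C1qb was at rank 13, C1qa at rank 23 and C1qc at rank 35. C1qa stood at 12.47, 12.34 and 12.41 in BSM and at 5.72, 6.36 and 6.23 in BMDM. C1qc stood at 12.16, 12.27 and 12.23 in BSM and at 5.33, 5.38 and 5.55 in BMDM. C1qb and C1qa were 127- and 79.1-fold higher in BSM, and C1qc was at least 97.4-fold higher. The anaphylatoxin receptor C3ar1, at 11.04, 11.15 and 11.41, and the complement receptor chains Itgam and Itgb2 were the other members. Of 15 complement genes measured, 9 were higher in BSM and 5 lower, at a median difference of 0.56. Among the class I genes beta 2-microglobulin (B2m) stood at 12.77, 12.91 and 12.90 in BSM and overlapped BMDM, which was at 12.71, 12.66 and 12.77. Of 14 genes of the class I pathway 3 were higher and 8 lower in BSM. Of 8 class II pathway genes only Ctss was a member, and 5 were lower.

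Immune receptors, their adaptors and innate sensors made up another class of 25 members, of which 20 were higher in BSM and none was lower. Their median difference was 1.18. The lectins and Fc-related receptors Siglech and Fcrls had differences of 7.08 and 7.48 and were at least 109- and 78.3-fold higher. The lipid-sensing receptor Trem2 stood at 11.51, 11.91 and 11.68 in BSM and averaged 8.03 in BMDM. Its adaptor Tyrobp, at 12.26, 12.07 and 12.21, overlapped BMDM, which was at 12.04, 12.20 and 12.16. The Fc receptor gamma chain Fcer1g, at 12.46, did not pass the test either (difference -0.12, adjusted p = 0.3), although after a further quantile normalization it was higher by 0.24 (adjusted p = 0.048). The inhibitory receptor Cd300a was higher in BSM by 2.49 but lower in the Expression Console table (-1.10, adjusted p = 0.0026). Over the list of 12 Fc, TREM and ITAM genes, 5 were higher and 4 lower, and the median difference of 0.09 turned to -0.10 with median centring and to -0.08 in the Expression Console table.

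Among engulfment receptors, 5 of 17 were members and 13 were higher in BSM. Mertk, a receptor tyrosine kinase that binds bridging proteins on dying cells, was at 11.12, 11.10 and 11.10 in BSM and averaged 3.97 in BMDM, which makes it at least 45.1-fold higher. Its bridging ligand Pros1 was a member too, at 10.69, 10.82 and 10.78. The integrin chain Itgb5, at 10.98, 11.07 and 10.94, was 20.3-fold higher in BSM. Sirpa, the receptor for the CD47 signal that restrains engulfment, stood at 12.07, 12.18 and 12.16 in BSM and was 2.11-fold higher there. The innate sensors Cd14, at 11.12, and Cd180, at 11.75, were higher in BSM by 3.59 and 1.04.

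G protein-coupled receptors and their partners supplied 17 members, and 16 of them were higher in BSM. Only 1 of the 17 was among the first 300 genes of BMDM. Nucleotide receptors led. P2ry13 was 103-fold and P2ry12 at least 73.1-fold higher in BSM, while P2ry6, a UDP receptor, stood at 11.50, 11.65 and 11.74 in BSM and at 9.26, 9.41 and 9.66 in BMDM. Gpr34, a lysophospholipid receptor, stood at 11.86, 11.28 and 11.48 in BSM and averaged 5.12 in BMDM. Entpd1, the ectoenzyme CD39 that removes ATP and ADP, stood at 10.60, 10.66 and 10.46 in BSM and at 6.81, 6.82 and 6.83 in BMDM. Of 10 purine receptor and related genes measured, 8 were higher in BSM and 1 was lower. The list of chemokine and chemoattractant receptors was evenly split, with 8 higher and 8 lower of 17 measured, and 3 were members. The adhesion receptor Adgrg1 (11.10) was at least 45.0-fold higher, and the fatty acid receptor Gpr84 (10.80) was 30.3-fold higher. Gpr183, which follows oxysterols, stood at 10.68 and was 4.04-fold higher.

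Adhesion, tetraspanin and secreted proteins gave 25 members, of which 24 were higher in BSM and only Itgb2 was lower. Their median difference was 2.93, and 4 of the 25 were among the first 300 genes of BMDM. The wider lists were mixed. Of 21 integrin and adhesion genes measured 12 were higher and 6 lower in BSM, at a median of 0.56. Of 28 secreted and matrix genes 13 were higher and 9 lower, at a median of 0.32. The tetraspanin Cd81 was 39.5-fold higher in BSM, and the tetraspanin Cd9 stood at 11.37, 11.26 and 11.55 against a BMDM mean of 7.34. All 12 measured tetraspanins were higher in BSM, 11 with median centring, and 9 of 11 in the Expression Console table. F11r, the junctional adhesion molecule A, stood at 11.69, 11.64 and 11.70 in BSM and at 4.23, 4.41 and 4.79 in BMDM. Secreted products included Sparc, the olfactomedin-like protein Olfml3 at 11.88, 12.13 and 11.92, the ribonuclease Rnase4 at 11.34 and the protease inhibitor Serpine2 at 10.71. Olfml3 averaged 5.13 in BMDM. The lipoprotein gene Apoe stood at 10.90, 11.41 and 11.21, with a BMDM mean of 10.26.

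Lipid and eicosanoid enzymes gave 9 members, with a best rank of 66 and a median difference of 2.94. The cyclooxygenase Ptgs1, which makes prostaglandin H2, stood at 11.64, 11.71 and 11.75 in BSM and at 8.41, 7.87 and 7.79 in BMDM. Hpgds, which turns prostaglandin H2 into prostaglandin D2, stood at 11.24, 11.36 and 11.04 in BSM and at 4.40, 4.54 and 3.92 in BMDM. The leukotriene C4 synthase Ltc4s stood at 10.59, 10.57 and 11.03 in BSM and averaged 5.30 in BMDM. These enzymes act in consecutive or parallel steps on arachidonic acid. Alox5ap, the partner of 5-lipoxygenase, went the other way, at 11.11 in BSM and 11.92 in BMDM. Of the wider list of 24 lipid handling genes, 9 were higher in BSM and 12 lower, at a median difference of -0.34.

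Cytokine, growth factor and survival receptors gave 8 members, 6 of them higher in BSM and none lower. Csf1r led at rank 29, and Tgfbr1, the type I receptor for transforming growth factor beta, stood at 11.77, 11.65 and 11.56 in BSM against 7.31, 7.31 and 7.36 in BMDM. The interferon gamma receptor Ifngr1 was at 11.15, 11.14 and 11.12, and the interleukin 10 receptor Il10ra at 10.99. Csf3r, the one gene of the neutrophil list among the members, stood at 10.93, 10.94 and 10.93 in BSM and at 9.86, 9.67 and 9.93 in BMDM. Of 15 measured genes of that list 14 were lower in BSM, S100a9 among them at 4.96, 5.96 and 5.39. Csf3r therefore did not move with its list. The list of colony-stimulating and survival signalling genes had 8 higher and 17 lower of 32, and its median of -0.36 turned to 0.03 after a further quantile normalization.

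Transcription factors of the lineage were measured as well. Sall1, a factor known to hold the identity of microglia, stood at 10.67, 10.68 and 10.78 in BSM and at 4.60, 4.64 and 4.66 in BMDM, and was at least 34.2-fold higher. Mef2a stood at 10.90 and was 2.94-fold higher in BSM. Spi1, which encodes the myeloid factor PU.1, was a member at 10.53, 10.46 and 10.74 and stood lower than in BMDM, at 10.95, 11.07 and 11.11 (difference -0.47, adjusted p = 0.0088). Of 30 such factors measured 17 were higher in BSM and 8 lower.

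The letters GAGGAAGT, a form that PU.1 is known to bind, were in 20 of 236 member promoters (8.47%) and in 483 of 14712 in all (3.28%). Windows of 5 members are shown because they belong to groups described above, namely cathepsins, tetraspanins, complement and prostaglandin enzymes. Pld4, Ddx5 and Selenop also held the motif and ranked above Hpgds, but are not shown. The motif is in capitals. It reads ACTTCCTC on the opposite strand.
Ctss: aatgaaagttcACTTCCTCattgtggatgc
Cd53: cactcagtctcACTTCCTCactcttctcgc
C1qc: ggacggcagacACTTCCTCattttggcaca
Ptgs1: aggctggagcaGAGGAAGTtggcggtcagc
Hpgds: gcttttaggtgGAGGAAGTggcctctggct
The windows lie at chr3:95526773-95526802 (Ctss, plus strand), chr3:106790125-106790154 (Cd53, minus strand), chr4:136893091-136893120 (C1qc, minus strand), chr2:36230391-36230420 (Ptgs1, plus strand) and chr6:65144761-65144790 (Hpgds, minus strand). The motif spans the start in Ctss and lies 49 bases before it in Hpgds and 195 before it in C1qc. In all, 13 motifs were searched on both strands except the tract at the start, which was read in the direction of transcription. The remaining ones were TGACGTCA, in 2.97% of member promoters and 2.72% of all, TGAGTCA (4.66% and 5.38%), GGGCGG (61.0% and 54.4%), CCAAT (42.8% and 41.7%), TATAAA (15.3% and 13.5%), AAGATGGCG (2.54% and 2.41%), TTGCGCAA (0.424% and 0.279%), the CArG box (2.12% and 1.68%) and the MEF2 site (1.69% and 0.605%). The motifs GAGGAAGT and CCGGAAGT share the letters GGAAGT. The motifs were chosen with the gene lists in view, and the shares are descriptions.

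Cytoskeletal, metabolic and RNA-handling members were mixed in direction, and 11 of 23, 10 of 14 and 9 of 15 of them were among the first 300 genes of BMDM. The class of actin cytoskeleton and tubulin genes had 23 members, 10 of them higher and 8 lower in BSM, with a median difference of 0.17 that turned to -0.02 with median centring. In the wider list of 43 actin cytoskeleton genes 33 were lower in BSM, at a median of -0.94. Actb stood at 12.90, 12.95 and 12.95 in BSM, averaged 13.03 in BMDM and did not pass the test (adjusted p = 0.37). The actin-sequestering peptide Tmsb4x overlapped too, at 12.38, 12.08 and 12.16 against 11.99, 12.08 and 12.01. The regulatory light chain Myl12b was lower in BSM by 1.06. Of 74 subunits of the respiratory chain and ATP synthase only Atp5e and Cox6a1 were members. None of the 74 was higher in BSM, 70 were lower, at a median of -1.20, and with median centring all 74 were lower. Of 31 proteasome and ubiquitin genes 28 were lower.

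RNA processing and translation gave 15 members, 6 of them higher and 7 lower in BSM, and their median difference of -0.12 turned to 0.32 after a further quantile normalization. The helicase Ddx5 stood at 11.56, 11.24 and 11.36 in BSM and was 1.89-fold higher, and the RNA-binding protein Qk stood at 11.58 and was 3.24-fold higher. The splicing proteins Hnrnpa3 and Srsf3 were lower in BSM, by 0.51 and 0.36, and the difference of Srsf3 turned to 0.045 after the same normalization (adjusted p = 0.72). Over 46 hnRNP and splicing genes 11 were higher and 26 lower.

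Membrane traffic and transport gave 19 members, of which 11 were higher and 3 lower in BSM. Serinc3, a membrane protein, was the highest of them at 12.57, 12.35 and 12.34, against a BMDM mean of 11.63. Picalm, a clathrin assembly protein, stood at 11.24, 10.93 and 10.95 and was 2.67-fold higher in BSM. The organic anion transporter Slco2b1 differed most in this class, at 10.91, 11.04 and 10.94 in BSM against 4.39, 4.35 and 4.48 in BMDM (at least 40.8-fold). Among signalling enzymes 5 of 6 members were higher in BSM. Rasgrp3, which activates Ras and Rap, stood at 10.36, 10.52 and 10.37 and was at least 27.9-fold higher, and the lipid phosphatase Inpp5d, at 11.07, was 2.73-fold higher. Tmem119, a membrane protein widely used as a microglia marker, stood at 11.55, 11.81 and 11.71 in BSM and at 5.71, 5.86 and 5.86 in BMDM.

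Among metabolic enzymes the directions were mixed. The lactate dehydrogenase chain Ldhb, at 10.57, 10.69 and 10.67 in BSM, was 6.87-fold higher than in BMDM, whereas Gapdh, at 11.42, 10.98 and 11.49, was lower by 0.73. Of 16 glycolysis enzymes 2 were higher and 11 lower. The brain-type creatine kinase Ckb, at 11.08, was 8.76-fold higher, and glutamine synthetase (Glul), at 11.18, was 4.24-fold higher. Among redox enzymes Selenop, which carries selenium out of the cell, was higher in BSM by 1.66, and Gpx1 and Sod1 were 2.82- and 2.85-fold lower. Of 19 such enzymes 16 were lower. The endoplasmic reticulum chaperones Hspa5, Pdia3, Calr and Canx were all higher in BSM, by 1.00, 0.51, 0.54 and 0.33, although over 29 chaperone genes 6 were higher and 14 lower.

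The lists of proliferation genes and interferon-induced genes had no member. The 28 proliferation genes had a median level of 5.36, below the median of all genes, and all 28 were lower in BSM. Mki67, expressed in cycling cells, was at 4.66, 4.45 and 4.61. The highest of them was the replication clamp Pcna, at 9.34, 8.98 and 9.23 and rank 917. Of 17 interferon-induced genes, with a median level of 6.57, 15 were lower in BSM and Ifi27 was higher. Bst2, at 8.75, 9.03 and 9.21, was the highest. Chemokines were represented by Ccl3, at 11.45, 11.13 and 11.78, and Ccl4, at 10.79, 10.01 and 10.94. Both encode secreted chemoattractants. The interleukin gene Il1a lay just outside the members at rank 354, at 10.17, 10.17 and 10.21, and averaged 3.49 in BMDM. Of 27 chemokines and cytokines measured 17 were higher in BSM and 5 lower.

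Pools of BSM agreed closely for most members. The SD over the 3 arrays had a median of 0.12 among the members and 0.15 over all genes, with quartiles of 0.07 and 0.18 among the members. It was under 0.1 for 116 members and over 0.3 for 15. The Arf GTPase-activating protein Adap2 varied least (SD 0.0042), at 10.42 on each array. The lipid kinase Pip4k2a, Csf3r, Mertk and Ifngr1 followed with SDs of 0.0078, 0.0096, 0.010 and 0.013. Over 2 arrays the median SD of the members was 0.08 without replicate 1, and 0.11 or 0.10 without replicate 2 or 3. An SD over 2 arrays tends to be smaller than one over 3, so these values are not directly comparable with 0.12. Members were lowest on replicate 1 in 152 cases (50.7%), against 36.1% of all genes, and highest on replicate 3 in 153 cases (51%).

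The members that varied most shared a pattern. Of the 20 with the largest SD, 17 were lowest on BSM replicate 2, where 33.5% of all genes were lowest. Egr1, a zinc finger factor induced within minutes by many stimuli, varied most of all, at 12.28, 11.32 and 12.29. Next were the linker histone H1f2, at 11.17, 10.46 and 11.55, and the phosphatase Dusp1, at 11.26, 10.19 and 10.92. Then came Ccl4, the mitochondrial gene ATP6 at 12.13, 11.18 and 11.50, and Rpl28 at 11.63, 10.78 and 11.49. All 6 were lowest on replicate 2.

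**Figure D5:**
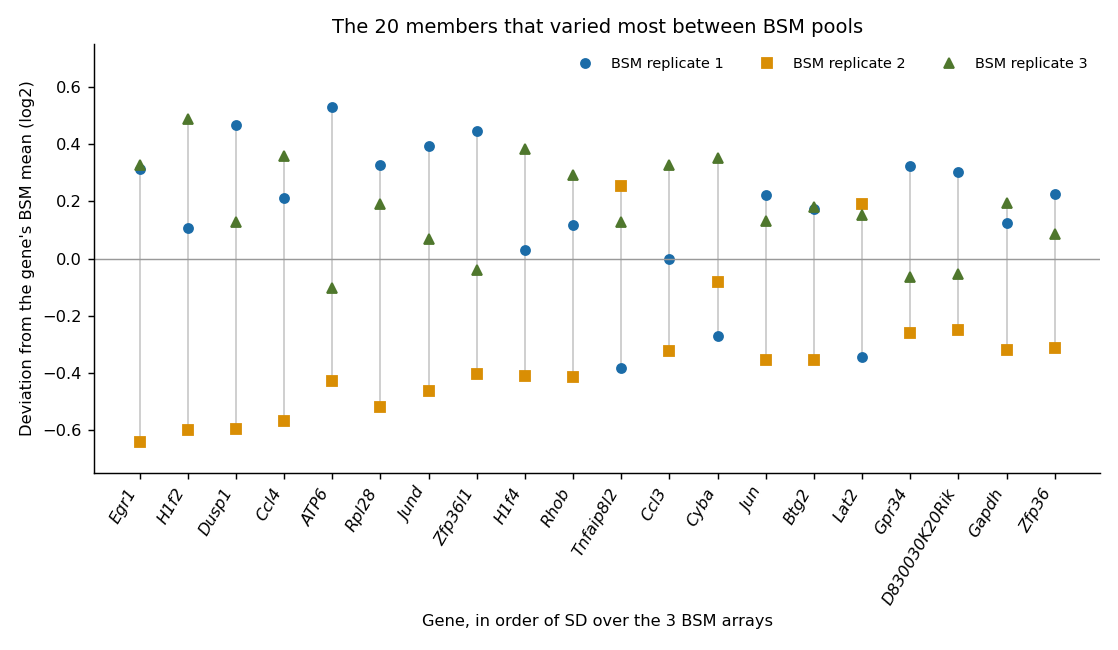
Deviation of each BSM array from the gene's BSM mean (y axis, log2) for the 20 members with the largest SD, in order of SD on the x axis, with a symbol for each BSM replicate. Replicate 2 is the lowest of the 3 in 17 of the 20 genes, Egr1 and Dusp1 among them.

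Immediate-early genes made up much of this set. They respond to stimulation without new protein synthesis and encode factors such as AP-1 and Egr and proteins that shut signals down again. All 9 members of this kind, Jun, Jund, Egr1, Dusp1, Zfp36, Zfp36l1, Btg2, Rhob and Rgs2, were lowest on replicate 2. Jun stood at 11.79, 11.21 and 11.70, Btg2 at 12.24, 11.71 and 12.24, and the RNA-destabilising protein Zfp36 at 12.10, 11.57 and 11.96. Of the whole list of 34, 32 were lowest on replicate 2, as were 31 of 34 by Expression Console. The median deviation from a gene's mean was 0.22, -0.39 and 0.18 on replicates 1, 2 and 3. Outside the members Fos stood at 10.50, 9.17 and 10.31 and Ier2 at 9.49, 8.17 and 9.86. The labels give the same sex for replicates 2 and 3. What set that pool apart was not tested.

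This spread bears on the comparison with BMDM. Of the 34 genes 19 were higher in BSM and 5 lower, at a median of 0.81, and without BSM replicate 2 the counts were 22 and 5, at a median of 1.07. The BMDM arrays varied as well: Dusp1 stood at 10.98, 10.03 and 8.98 there and overlapped BSM (adjusted p = 0.19). Egr1, at 6.49, 6.28 and 5.70 in BMDM, was 56.1-fold higher in BSM with no overlap. Jun was 5.22-fold higher and Btg2 3.81-fold. The letters TGACGTCA, the cyclic AMP response element, were in 4 of 29 promoters of the list (13.8%), against 2.72% of all. Other motifs were above the share of all promoters too, among them the MEF2 site (10.3% against 0.605%), TATAAA (34.5% against 13.5%) and GGGCGG (86.2% against 54.4%). GAGGAAGT, CCGGAAGT, TGAGTCA, AAGATGGCG and TTGCGCAA were in none of the 29, and the tract at the start was rarer (3.45% against 10.8%). TGACGTCA is shown in capitals for the 2 members that held it.
Btg2: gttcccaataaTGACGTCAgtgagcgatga
Dusp1: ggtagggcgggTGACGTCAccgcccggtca
These lie on the minus strand at chr1:134079303-134079332 and chr17:26508597-26508626.

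Ribosomal genes followed another pattern over the pools, which several other lists shared. None of the 56 was lowest on replicate 3, where 30.3% of all genes were lowest, and 46 were highest there, as were 30.3% of all genes. Their median deviations were -0.11, -0.06 and 0.16 on replicates 1, 2 and 3. The 74 respiratory chain and ATP synthase genes were nearly alike, at -0.11, -0.06 and 0.17, with 1 lowest and 62 highest on replicate 3. None of 31 proteasome and ubiquitin genes, 14 V-ATPase genes and 14 class I pathway genes was lowest there. Of these lists 22, 12 and 10 genes were highest on replicate 3. In the Expression Console table the 16 ribosomal genes measured there had the same order, at -0.21, 0.01 and 0.28. Replicate 1 was low throughout that table: 56.25% of these genes were lowest on it, as were 56.37% of all genes. On replicate 3, 2 of the 16 were lowest (12.5%), against 19.3% of all genes. The 29 microglia markers had median deviations of -0.01, -0.01 and 0.01, and the 25 measured by Expression Console had -0.10, 0.08 and 0.02.

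The Expression Console table was used as a check on the order. It measured 219 of the 300 members by a single symbol. Over the 14416 genes of both tables the Spearman correlation of the ranks was 0.964, a value across genes, and 247 of the first 300 were shared. Of the 219 members 195 were among its first 300 and 12 lay below rank 1000. Whole classes held: all 31 lysosomal members measured in both, all 15 G protein-coupled receptor members, all 4 complement and class I members, 23 of 24 immune receptors and 21 of 22 adhesion and secreted members. Laptm5, Cst3, Cd81 and Selplg were its first 4 genes among those of both tables, and Cx3cr1 and P2ry12 stood higher in it, at ranks 13 and 18.

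The ribosomal and histone classes mostly did not hold. Of 8 ribosomal members measured there, 1 was in the first 300 and 6 lay below rank 1000, with a median of 6.66 against 11.53 in the Aroma table. Rps24 was at 5.03 and rank 8483, and Rpl37 at 4.26 and rank 10429. H2ac8, second in the Aroma order, was at 5.15 and rank 8160. Of 3 histone members measured there, only H1f2 was in the first 300, at 10.64 and rank 151. Some ribosomal genes were high in that table too: Rps9, outside the members at Aroma rank 729, was at 11.94 and rank 27 there. Among other genes the actin-severing Cfl1, the tropomyosin Tpm3, the splicing factor Srsf3 and the inhibitory receptor Cd300a also lay below rank 1000. By its values 128 of 219 members were higher in BSM than in BMDM and 34 lower. Over all 14416 genes of both tables, and not the members alone, the pool deviations correlated at 0.81, 0.76 and 0.77 on replicates 1, 2 and 3.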

How the data were processed

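RNA of sorted BSM and BMDM was measured on 6 exon arrays, 3 per cell type. In the Aroma table the authors deposited linear intensity values, which had been background-corrected and quantile normalized as in RMA and fitted per gene with a log-additive model of the probes. In the Expression Console table they deposited log2 values from RMA, annotated on build mm9 per the labels. The submitters' processing notes also name Partek, which was not used here. Neither table carries a detection call, so dim levels include background. Precision is limited by how few arrays there are. Median linear intensity was 48.8 to 52.1 on the BSM arrays and 42.8 to 45.2 on the BMDM arrays.

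Intensities were converted to log2 with no pseudocount and no filter. Probe symbols came from the platform annotation: 763 rows had several symbols and 2253 had none, and 2858 were updated through RefSeq names. A gene with several rows took the row with the highest mean. The 17 classes were assigned by hand to the 300 members after their values were seen. Differences are BSM minus BMDM, tested two-sided with limma 3.58.1 under R 4.3.3 (lmFit, then eBayes) over all 21837 rows, and the step was tested on simulated data. The labels call the arrays biological replicates, and p-values measure the spread between these pools. Same-numbered arrays did not deviate together (r of 0.08, 0.03 and 0.00), so the main fit had no block.

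The members and gene lists were chosen with earlier results of these data known, and 2 genes, Ptma and Selplg, were taken out of lists they had been entered in by mistake. Named genes (174) were ranks 1 to 25, the microglia markers given for the cell type, the leading members of each list, the most and least variable members, those with the widest differences, the ranks around 300, the sort and sex-linked genes and those that fell most in the second table. Others were named after their values had been seen. Alternatives tried were the replicate block, sex as a covariate, each array left out, the second table, a further quantile normalization, median centring, a filter on dim rows, other eBayes settings, the methods' t-test, and other ways of averaging arrays and rows. Genes without a row of their own symbol, among them some known microglial genes, were not analysed here.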

Additional observations from a re-analysis of the deposited data

How the results depend on the processing

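The membership held under most alternatives. Leaving out a BSM array kept 292 to 295 of the 300 genes, other ways of averaging arrays and rows 290 to 298, a further quantile normalization of the BSM columns 300, and the second table (Expression Console) kept 247 of the first 300 among genes of both. Beside rank, that table changed the split of all rows most: 6734 of 23332 rows were called, 1955 of them higher in BSM (main 10838 and 6120). Of the 219 members in it, 128 were higher and 34 lower. Median centring gave 3253 rows higher and 5792 lower. A further quantile normalization gave 4646 and 4236, with 194 members higher and 47 lower (main 168 and 89). Keeping only rows whose mean reached the median of all rows gave 3342 higher among 10919. The cause was not tested, except that the filter and the second table hold other rows. Leaving out 1 array gave 8491 to 10120 calls, 162 to 167 members higher and 75 to 88 lower. The median SD of the members was 0.081 to 0.11 with a BSM array left out, lowest without BSM replicate 1, and 0.17 in the Expression Console table. With the replicate block 10319 rows were called, and 165 members were higher and 82 lower. The block is no paired design here. The methods' t-test called 8877 rows, 163 members higher and 88 lower.

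Of 1669 values for 121 named genes, 1559 kept their direction and side of the threshold, 74 lost the call, 14 gained it and 22 changed sign. In the Expression Console table the sign turned for H2ac8 (0.11), H2ac6 (1.19), Tpm3 (0.20) and Rps24 (0.39). A further quantile normalization turned Rps23rg1 (0.25), H2ac6 (0.027), Actb (0.17), Rps29 (0.063), Ly6e (0.022), Fcer1g (0.24), Eif4g2 (0.043), Tpm3 (0.060), Hspa8 (0.38), Ube2d3 (0.14), Hnrnpk (0.32), Srsf3 (0.045) and H1f4 (0.20). Median centring turned B2m (-0.045), Tyrobp (-0.14) and ATP6 (-0.026). ATP6 was -0.10 without BSM replicate 1, and H1f4 ran from -0.39 to 0.0054 with an array left out, the last without BSM replicate 2. Each of these has a main difference under 1 on the log2 scale. Of them, Rps23rg1 passed the test in both directions (adjusted p = 0.01 lower, 0.033 higher after the further quantile normalization), and Fcer1g, Hspa8 and Hnrnpk, which did not pass before, were called higher after it (adjusted p = 0.048, 0.0093 and 0.031). By Expression Console 2 members were called the other way, Rpl10a (1.15) and Cd300a (-1.10).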

Other observations

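Rows that carry no single gene symbol were left out of the order. At or above the level of rank 300 lay 400 rows of the BSM arrays, of which 41 carried several symbols, the highest at 13.10, and 42 carried none, the highest at 13.12. These rows may hold further abundant transcripts that the list of 300 does not name. In the Expression Console table the highest single-symbol row was AY036118, at 13.46, which has no single-symbol row in the Aroma table.

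Outside the members, the inducible heat shock gene Hspa1a had the same pool pattern as the immediate-early genes and a wider range. It stood at 7.44, 3.33 and 7.16 on BSM replicates 1, 2 and 3, while its constitutive relative Hspa8, a member at rank 55, stood at 11.97, 11.82 and 11.87. Hspa1a was singled out after its values were seen.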
